A study of Mus musculus with 2 samples.

Results

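The genes of the cell cycle engine and its inhibitors were described in hippocampal RNA of 14-day-old mice. They were chosen by symbol: 35 named genes were looked up in both gene tables and in all transcript tables, and all 35 were found among 55450 annotated genes. They fall into 8 genes of G1, 10 of S phase, 12 of G2 and mitosis (G2/M) and 5 inhibitors of cyclin-dependent kinases, and these classes are given apart. The rule used no measured value, but the genes and lists were chosen with earlier results of these data known.

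The libraries were made from total RNA, with ribosomal RNA depleted, of female B6CASTF1/J mice, hybrids of C57BL/6J and CAST/EiJ parents, from the Jackson Laboratory. The tissue is labelled as a hippocampal layer, with no statement of which layer. There was 1 group of 2 libraries, called replicates 1 and 2 by the labels; each listed 3 females and began with 300 ng of RNA, and both carry the same donor identifier. With no second group, levels and the gap between the libraries are described, and no p-value is given.

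Progression through the cell cycle is driven by cyclins, which rise and fall, and by the kinases (CDKs) they activate. D cyclins with Cdk4 or Cdk6, then E cyclins with Cdk2, inactivate the retinoblastoma protein and free E2F factors, which switch on the genes of DNA replication. Cyclins A and B with Cdk1 then drive entry into mitosis. INK4 inhibitors block Cdk4 and Cdk6, and Cip/Kip inhibitors bind a wider range of cyclin-CDK complexes. In the hippocampus at this age most neurons have left the cycle, while dividing cells are found in the dentate gyrus and among glial precursors.

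Replication and mitosis genes are known to be switched on from short promoter motifs, which were read from the RefSeq promoter table of GRCm38.p6, the same sequence as mm10. The table held 30 of the 35 genes; Ccnd1, Ccne2, Mcm4, Ccna2 and Aurkb were not in it. Each window ran from 250 bases before to 50 bases after an annotated start, and both strands were searched. The motifs were the cell cycle homology region (CHR, with the letters TTTGAA), the CCAAT box, the E2F site (TTTCGCGC, TTTGGCGC, TTTCCCGC or TTTGGCGG) and the GC box (GGGCGG). The CHR is bound by complexes that time G2/M genes, CCAAT by NF-Y, and the E2F site by the E2F family. E2F matches can overlap each other on opposite strands.

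The stretches below, of 150 bases before the start and 5′ to 3′ on the strand of the gene, are shown because they carry the motifs that are counted by class below. Capitals mark CHR, CCAAT and E2F matches on either strand, so ATTGG marks a CCAAT match on the other strand. A CHR match on that strand reads TTCAAA. No annotated exon lies in any of them. They are for Ccnb2 (cyclin B2, chr9:70421555-70421704, minus strand), Top2a (topoisomerase, chr11:99024190-99024339, minus), Mki67 (the proliferation antigen Ki-67, chr7:135716380-135716529, minus), Mcm5 (helicase subunit, chr8:75109359-75109508, plus) and Mcm6 (helicase subunit, chr1:128359706-128359855, minus).
Ccnb2: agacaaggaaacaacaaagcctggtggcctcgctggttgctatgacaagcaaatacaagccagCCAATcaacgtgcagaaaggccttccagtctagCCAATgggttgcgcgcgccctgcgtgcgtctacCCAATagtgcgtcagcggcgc
Top2a: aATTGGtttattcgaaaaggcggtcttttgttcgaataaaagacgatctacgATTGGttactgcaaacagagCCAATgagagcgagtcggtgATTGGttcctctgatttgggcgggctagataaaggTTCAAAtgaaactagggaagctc
Mki67: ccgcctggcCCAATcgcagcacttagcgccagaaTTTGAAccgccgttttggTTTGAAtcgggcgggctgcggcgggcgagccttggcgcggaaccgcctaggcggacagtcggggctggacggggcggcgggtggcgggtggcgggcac
Mcm5: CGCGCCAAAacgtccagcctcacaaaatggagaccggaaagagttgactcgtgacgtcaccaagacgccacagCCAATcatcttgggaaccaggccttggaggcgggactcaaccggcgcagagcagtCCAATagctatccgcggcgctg
Mcm6: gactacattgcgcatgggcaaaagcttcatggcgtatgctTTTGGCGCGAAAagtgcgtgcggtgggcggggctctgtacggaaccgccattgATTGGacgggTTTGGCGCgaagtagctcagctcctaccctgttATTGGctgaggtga

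The Ccnb2 stretch holds 3 CCAAT matches that begin 87, 54 and 21 bases before the start, and its CHR matches lie outside the printed bases. Top2a has a CHR match 23 bases before the start, downstream of 4 CCAAT matches in the same stretch. Mki67 has CHR matches 116 and 98 bases before the start. Mcm6 has an overlapping pair of E2F matches at 110 and 106 bases and another at 47, and the first capitals of Mcm5 end an overlapping pair that begins 153 and 149 bases before the start.

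Among the G2/M genes in the table, 7 of 10 had a CHR match and 9 of 10 a CCAAT match. CCAAT was about as common in S phase genes, with 8 of 9, and was found in 2 of 6 G1 genes and 3 of 5 inhibitors, while CHR was found in 2 of 9, 0 of 6 and 1 of 5. Over all 27025 genes in the table the CHR and CCAAT shares were 20.2% and 41.1%, and over the 17492 protein-coding ones 18.5% and 42.3%. Both motifs stood together in 7 of 10 G2/M genes, 2 of 9 S phase genes (Cdc45 and Mcm2), 0 of 6 G1 genes and 0 of 5 inhibitors, against 7.97% of all genes. E2F letters were found in 4 of 9 S phase genes (Mcm3, Mcm5, Mcm6 and Mcm7), in Cdk2 among 6 G1 genes, in Cdk1 among 10 G2/M genes and in 0 of 5 inhibitors, against 2.70% of all genes and 3.44% of protein-coding ones. The GC box was common in all classes: 5 of 6 G1, 8 of 9 S phase, 9 of 10 G2/M and 5 of 5 inhibitor genes, against 38.2% of all genes and 49.2% of protein-coding ones. These are matches of letters in a window, with no measure of binding.

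Depth was similar, with 33301012 and 32721957 expected counts on annotated genes. Levels are in TPM (transcript abundance scaled for length and library total) from the first of 2 deposited quantifications, as mean ± SD (n = 2) unless both libraries are given. A gene is called detected where both libraries reach 1 TPM. Markers of principal neurons (8 of 8 detected, led by Slc17a7 at 691 ± 27.3 and Zbtb20 at 145 ± 20.6, lowest Calb1 at 45.1 ± 6.05) were present, as the label of the tissue implies. Choroid plexus markers set the libraries apart: their summed level was 1437 TPM in replicate 1 and 9.86 TPM in replicate 2, mostly Ttr.

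Of the 35 genes, 30 were detected, against 58.8% of 21951 protein-coding genes. The classes differed in median level, but their ranges overlapped. Mean levels ran from 1.475 to 24.9 TPM for the inhibitors and from 1.675 to 52.7 TPM for G1. They ran from 1.485 to 21.1 TPM for S phase and from 0.52 to 3.54 TPM for G2/M. The median level was 9.70 ± 1.58 for the inhibitors, 4.24 ± 0.0530 for G1, 3.195 ± 0.173 for S phase and 1.405 ± 0.0530 for G2/M, the SD being that of the library medians. For scale, detected protein-coding genes had a median of 14.9 TPM and a lower quartile of 6.095 TPM. Above that median lay 2 of 5 inhibitors, 2 of 8 G1 genes, 1 of 10 S phase genes and 0 of 12 G2/M genes. In bulk tissue, fewer cells of a type and less RNA per cell cannot be told apart.

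**Figure D1:**
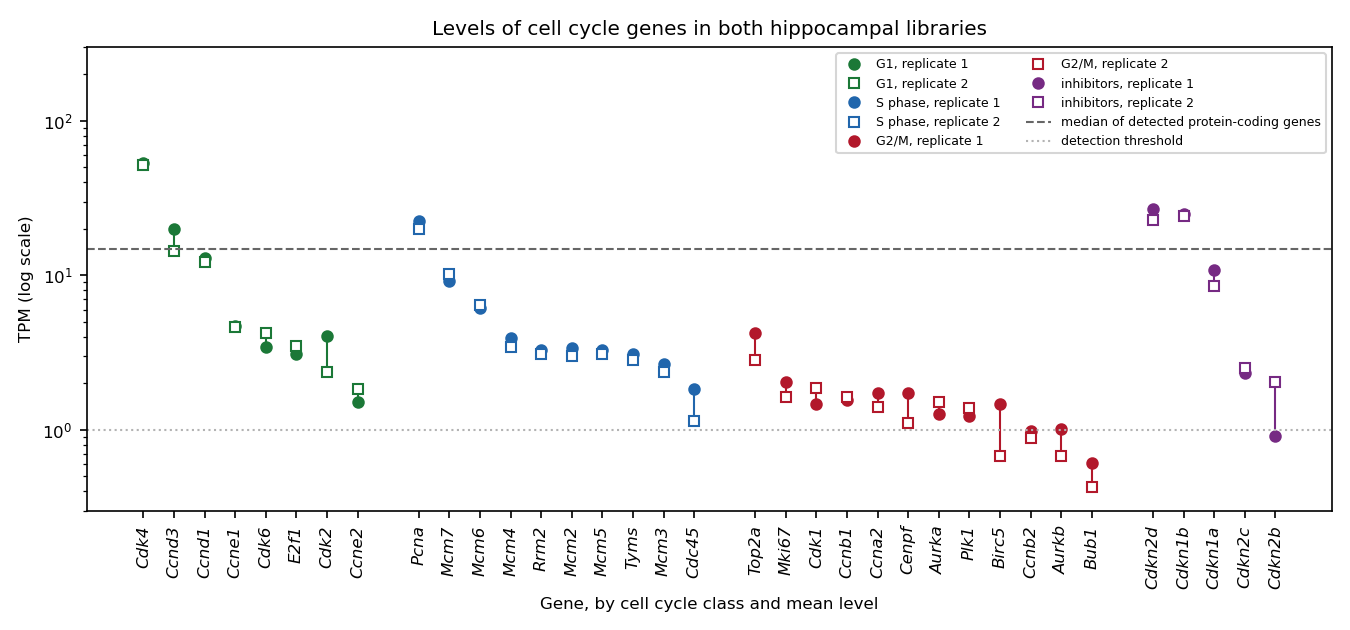
Level of each gene in TPM (log scale) in replicate 1 (filled circles) and replicate 2 (open squares), by cell cycle class and mean level, with the median of detected protein-coding genes dashed (14.9) and the detection threshold of 1 dotted. All 12 G2/M genes lie below the dashed line, while Cdk4, Ccnd3, Pcna, Cdkn2d and Cdkn1b have means above it.

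The G1 genes were all detected and spanned a wide range. Cdk4, the kinase partner of D cyclins on chromosome 10 (127063534 to 127067920, plus strand), had 53.5 TPM in replicate 1 and 51.9 TPM in replicate 2, above 85.2% of detected protein-coding genes. Its close relative Cdk6 had 3.44 and 4.22 TPM, so the Cdk4 level was 13.9 ± 2.30 times that of Cdk6, and 3.21 ± 0.776 times on protein-coding transcripts alone. Both libraries kept that order.

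Cyclin D3 (Ccnd3) had 20.1 and 14.4 TPM, and cyclin D1 (Ccnd1) 12.9 and 12.3 TPM. The remaining D cyclin, Ccnd2, is not among the 35 genes but stood above both, at 91.0 and 77.0 TPM. It took 73.8% ± 0.598 of the summed cyclin D level, Ccnd3 15.1% ± 1.63 and Ccnd1 11.1% ± 1.03. The D cyclins thus ranked in the same order in both libraries, with Ccnd2 first.

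The E cyclins, which act with Cdk2 at the entry to S phase, were lower. Ccne1 had 4.68 and 4.63 TPM and Ccne2 1.52 and 1.83 TPM, a ratio of 2.80 ± 0.388 over whole genes. On protein-coding transcripts alone Ccne1 had 4.25 and 4.14 TPM and Ccne2 0.99 and 0.91 TPM. Cdk2 itself had 4.02 and 2.38 TPM. The transcription factor gene E2f1, target and driver of the same switch, had 3.10 and 3.47 TPM.

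Among the S phase genes, Pcna, the sliding clamp of the replication fork, stood apart with 22.4 and 19.8 TPM. The 6 subunits of the MCM helicase, which are needed in equal numbers in the ring, ranged from 2.53 ± 0.212 (Mcm3) to 9.695 ± 0.643 (Mcm7) in mean level. Mcm7 had 9.24 and 10.2 TPM, Mcm6 6.13 and 6.46 TPM, and Mcm4 3.95 and 3.43 TPM. Mcm2 had 3.38 and 2.99 TPM, Mcm5 3.28 and 3.08 TPM, and Mcm3 2.68 and 2.38 TPM. Mcm7 was thus 3.86 ± 0.578 times as high as Mcm3, and Pcna was 6.10 ± 0.00814 times the median MCM subunit. In the second quantification the latter ratio was 9.40 ± 0.255. There 47.4% of Pcna's TPM fell to a processed transcript without a reading frame, and its coding transcript had 23.5 ± 2.38 TPM. The ratio was not computed on coding transcripts alone.

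The genes of nucleotide supply lay with the lower MCM subunits. Rrm2, the regulated subunit of ribonucleotide reductase, had 3.30 and 3.11 TPM, and Tyms, thymidylate synthase, 3.09 and 2.84 TPM. Cdc45, which joins the MCM ring to form the active helicase, was the lowest of the class at 1.83 and 1.14 TPM. All 10 S phase genes passed 1 TPM in both libraries.

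The G2/M genes were the lowest class, and 8 of 12 were detected. Top2a, the topoisomerase that untangles replicated chromosomes, led with 4.25 and 2.83 TPM. Mki67 (chromosome 7, 135689784 to 135716361, minus strand), which coats mitotic chromosomes, followed with 2.03 and 1.64 TPM. Both were higher in replicate 1.

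The kinase gene Cdk1 had 1.46 and 1.88 TPM and its partners Ccnb1 1.57 and 1.63 TPM, Ccna2 1.73 and 1.40 TPM and Ccnb2 0.98 and 0.89 TPM. The Cdk4 level was 32.1 ± 6.40 times that of Cdk1 over whole genes, and 8.05 ± 0.837 times on protein-coding transcripts alone. Among the mitotic kinases, Aurka had 1.27 and 1.52 TPM, Plk1 1.23 and 1.38 TPM and Aurkb 1.01 and 0.68 TPM. Bub1, the kinase of the spindle checkpoint, was the lowest of the 35 genes at 0.61 and 0.43 TPM.

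The kinetochore protein gene Cenpf had 1.72 and 1.11 TPM. Birc5 (survivin), the partner of Aurkb in the chromosomal passenger complex, had 1.47 and 0.68 TPM. The genes under the threshold in at least 1 library were thus Birc5, Ccnb2, Aurkb and Bub1. They were not absent: their expected counts in the libraries ranged from 20 (Birc5 in replicate 2) to 35 (Aurkb in replicate 1), against a floor of 3 counts.

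The S phase level was 2.28 times the G2/M level in replicate 1 and 2.23 times in replicate 2, by class medians. This ratio is taken within a library and does not depend on scaling between libraries. It was 2.28 ± 0.0601 in the second quantification.

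The inhibitors were led by a member of each family. Cdkn2d (p19, INK4 family; chromosome 9, 21288410 to 21291407, minus strand) had 26.9 and 22.9 TPM. Cdkn1b (p27, Cip/Kip family; chromosome 6, 134920401 to 134925513, plus strand) had 24.8 and 24.1 TPM. Both are known to be kept on in neurons that have left the cycle and stood above 66.5% and 65.9% of detected protein-coding genes.

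Cdkn1a (p21), the inhibitor induced by p53, had 10.8 and 8.58 TPM. Cdkn2c (p18) had 2.33 and 2.52 TPM, and Cdkn2b (p15) 0.91 and 2.04 TPM. Cdkn2b was the only inhibitor under the threshold, in replicate 1. Cdkn2d took 85.7% ± 4.16 of the summed INK4 level, against 8.38% ± 1.01 for Cdkn2c, 5.18% ± 3.09 for Cdkn2b and 0.759% ± 0.0499 for Cdkn2a. Cdkn2a, which lies outside the 35 genes, had 4 counts and 0.22 TPM in each library, just above the floor of 3 counts.

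In the Cip/Kip family Cdkn1b took 61.5% ± 3.26 of the summed level and Cdkn1a 24.3% ± 2.21. The remaining 14.3% ± 1.05 fell to Cdkn1c (p57), also outside the 35 genes, with 6.30 and 5.12 TPM. The order of the families' members was the same in both libraries.

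The gap between the libraries was measured for each gene as the log2 ratio of replicate 2 to replicate 1. Expected counts were rounded, scaled by TMM (edgeR's correction for library composition) and given a prior of 0.5. Intervals are exact binomial 95% intervals and cover counting error only. All 35 genes had the 50 summed counts required. At the 1.5-fold used as a call, 1 gene was lower in replicate 2 (Aurkb) and 1 higher (Cdkn2b). Over all 16127 genes tested the shares were 3.85% lower and 1.99% higher, and over those with 50 to 1000 counts 7.43% and 3.81%, so neither count stands out from the background.

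Cdkn2b (chromosome 4, 89306299 to 89311039, minus strand) had the widest gap, with 27 counts in replicate 1 and 60 in replicate 2. Its log2 ratio was 1.25, with an interval of 0.585 to 1.975, and it was 1.66 in the second quantification. It was also the only one of the 35 genes outside the central 95% of ratios of genes with 50 to 1000 counts, which ran from -0.95 to 0.68. Aurkb had 35 and 21 counts and a log2 ratio of -0.61, with an interval of -1.48 to 0.19 that includes equality.

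For 6 genes the interval lay below 0 and for 2 above it. Over all genes tested the shares were 16.2% below and 20.4% above, and over those with 50 to 1000 counts 15.1% and 9.06%, so these counts are near or under the background. Among the lower ones, Ccnd3 fell by 0.35 on the log2 scale (831 and 605 counts) and Cdk2 by 0.40 (174 and 122 counts). The inhibitors Cdkn1a, at -0.27 (450 and 346 counts), and Cdkn2d, at -0.16 (805 and 668 counts), were also lower, as were Mki67 at -0.20 (462 and 372 counts) and Cdk4 at -0.14 (1029 and 867 counts). Besides Cdkn2b, Mcm7 was higher, at 0.30 (337 and 385 counts, interval 0.09 to 0.52). All of these but Cdkn2b were changes of less than 1.5-fold, and counting intervals leave out the spread between animals.

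By class, the median log2 ratio was 0.02 for G1, -0.09 for S phase, -0.19 for G2/M and 0.02 for the inhibitors. Among G2/M genes 9 of 12 were lower in replicate 2. The exceptions were Cdk1, Aurka and Plk1, with log2 ratios of 0.51, 0.51 and 0.27, each with an interval that includes 0. The class's summed counts fell by 0.15 on the log2 scale, from 1449 to 1210 (interval -0.26 to -0.04). Most of these counts came from Mki67 (462 and 372), Top2a (315 and 258) and Cenpf (227 and 172), so the sum mainly reflects these genes. Of all 35 genes 20 were lower in replicate 2 by any amount, against 48.2% of all genes tested and 55.0% of those with 50 to 1000 counts. The sum of the 10 S phase genes was level between the libraries, at 2657 and 2458 counts (log2 ratio -0.002, interval -0.08 to 0.08). A lower sum was not particular to G2/M. The G1 sum was 3951 and 3479 counts (log2 ratio -0.073, interval -0.139 to -0.007). For the inhibitors it was 3045 and 2730 counts (-0.05, interval -0.12 to 0.03). Over all 35 genes it was 11102 and 9877 counts (-0.058, interval -0.097 to -0.019).

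**Figure D2:**
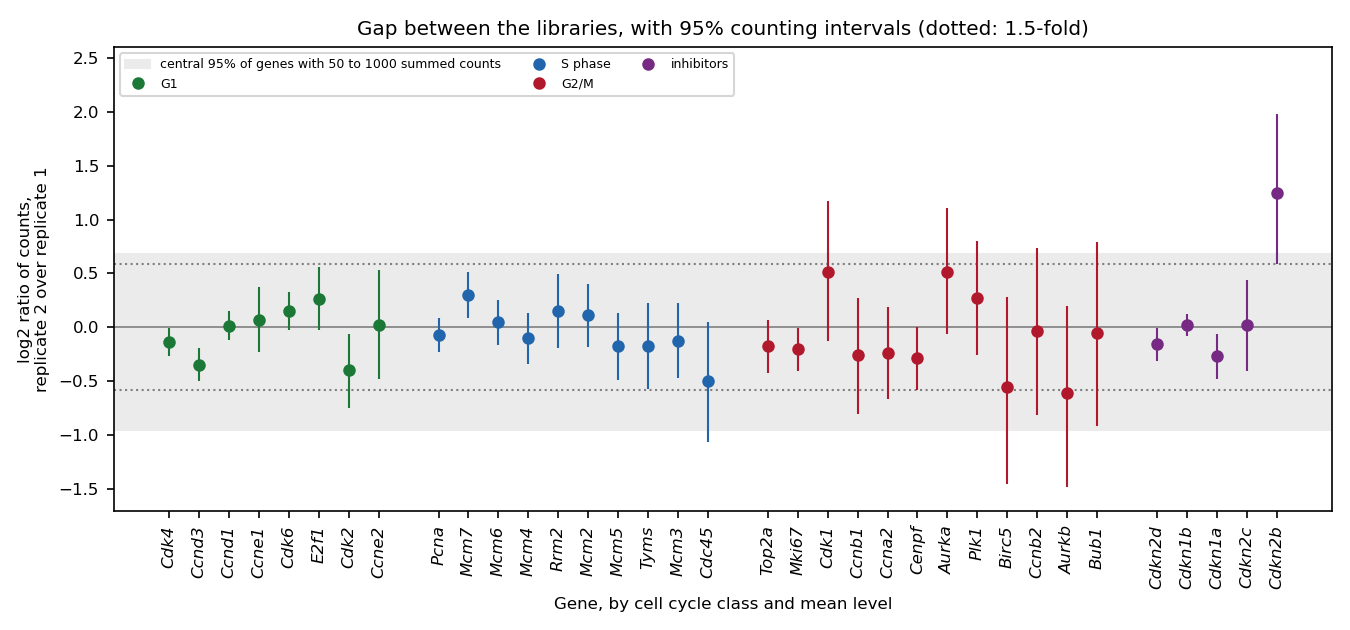
The log2 ratio of scaled counts, replicate 2 over replicate 1, for each of the 35 genes with its 95% counting interval; the grey band holds the central 95% of genes with 50 to 1000 summed counts and the dotted lines mark 1.5-fold. Cdkn2b at 1.25 is the only gene outside the band, and most intervals of the G2/M genes include 0.

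Cell type markers moved between the libraries too, and their part in the gaps above was not tested. Markers of intermediate progenitors and neuroblasts were higher in replicate 2 in 7 of 7 genes with enough counts, against 8352 of all 16127 genes tested. Their median log2 ratio was 0.20 and their sums were 99.2 and 109 TPM. In that list 7 of 8 genes were detected (highest Dcx and Neurod1, lowest Neurod4). The largest shift there was Eomes, the marker of intermediate progenitors, at 1.35 and 2.88 TPM. Neural progenitor markers (8 of 8 detected; highest Gfap and Fabp7) had sums of 333 and 297 TPM, and oligodendrocyte precursor markers (8 of 8; highest Olig1 and Gpr17, lowest Lhfpl3) 263 and 248 TPM. Both lists had small medians of log2 ratio, -0.08 and 0.12. The neural progenitor sums came mostly from Gfap (154 and 137 TPM) and Fabp7 (89.2 and 72.9 TPM), and 5 of 8 genes were lower in replicate 2. Of the oligodendrocyte precursor genes 6 of 8 were higher there by counts, although their sum of TPM was lower.

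Larger shifts were seen in markers of cells at the borders of the tissue. Choroid plexus markers were at least 1.5-fold lower in replicate 2 in 8 of 8 genes, the median log2 ratio being -4.88. The share lower was 3.85% over all genes tested and 7.43% over those with 50 to 1000 counts. Ependymal markers had sums of 24.2 and 10.2 TPM (highest Rsph1 and Foxj1, lowest Pifo) and meningeal fibroblast markers sums of 188 and 117 TPM (highest Igf2 and Col1a1, lowest Lum). Of these lists 3 of 8, 3 of 6 and 6 of 6 genes were detected, against 58.8% of all protein-coding genes. The choroid plexus list was led by Ttr and Sostdc1, with Otx2 lowest. Blood markers stayed close, with sums of 676 and 662 TPM (5 of 5; highest Hbb-bs and Hba-a1, lowest Alas2). The 4 remaining lists had 6 of 6 genes detected each. Median log2 ratios were 0.30 for astrocytes (highest Aldoc and Slc1a3, lowest Aldh1l1) and 0.24 for microglia (lowest Tmem119). They were 0.10 for myelinating oligodendrocytes (highest Mbp, lowest Mog) and 0.04 for endothelium (highest Slc2a1 and Cldn5, lowest Cdh5).

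Each gene's level is the sum of its annotated transcripts, of which the 35 genes have 188, from 1 to 21 a gene. Some are protein-coding, and others are classed as retained introns, as targets of nonsense-mediated decay or as processed transcripts without a reading frame. Many of these others are short fragments, but some are long, such as the decay target Tyms-204 with 3884 bases. In the median gene 91.2% of TPM came from protein-coding transcripts, and 89.8% in the second quantification. All 5 inhibitors were at 100% in both. In 2 genes, Cdk4 and Tyms, the coding share was under 50% in the first quantification. In the second those under 50% were Cdk4 (35.2%), Ccne2 (45.1%) and Ccnb1 (46.4%), and Tyms was at 73.1%.

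For Cdk4 only 22.4% of TPM came from coding transcripts. The leading transcript in both libraries was Cdk4-209, a retained intron of 468 bases, with 37.9% and 39.8% of the gene's TPM. Coding Cdk4-204 held 16.0% and 11.0%. A short transcript earns more TPM for each read: Cdk4-209 took 171 and 173 expected counts, against 212 and 141 for Cdk4-204. Coding transcripts alone gave Cdk4 12.7 and 11.0 TPM, where the whole gene had 53.5 and 51.9.

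The high level of Cdk4 thus rests largely on transcripts that do not encode the kinase, in the first quantification. In the second, Cdk4-209 again led, with 42.5% and 33.5%, and coding transcripts gave 28.4 ± 2.39 of 81.0 ± 13.0 TPM. By coding transcripts alone Cdk4 remained above Cdk6 in both quantifications, at 11.8 ± 1.23 against 3.75 ± 0.523 TPM in the first and at 28.4 ± 2.39 against 5.71 ± 0.616 TPM in the second. Neither Cdk4-209 nor Cdk4-204 overlaps any exon of another gene. The 641 exonic bases that Cdk4 shares with Tspan31 on the other strand lie in Cdk4-201, a coding transcript, and make up 31.2% of it. Cdk4-201 gave 4.14 and 1.69 TPM of the coding level in the first quantification, and 4.03 and 4.22 TPM in the second. How far reads of Tspan31 entered the coding level was not tested.

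For Tyms the quantifications went apart. The first gave 21.7% of TPM to coding transcripts and 39.5% and 27.1% to Tyms-205, a decay target of 618 bases. The second gave 0% to Tyms-205 and 76.1% and 70.1% to coding Tyms-201, which had 15.9% and 7.33% in the first. The counts of the whole gene differed too, at 119 and 98 in the first and 426 and 332 in the second. The coding level of Tyms was 0.645 ± 0.0354 TPM in the first and 5.76 ± 1.30 TPM in the second. Which estimate is nearer to the true level was not tested.

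Other genes showed the same kind of shift between transcripts, with less effect on their level. Pcna-201, the coding transcript, held 97.1% and 96.6% of Pcna in the first quantification and 51.3% and 48.9% in the second, where a processed transcript, Pcna-203, had 46.5% and 48.3%. The longer coding transcript of Birc5, of 3334 bases, held 4.26% and 18.8% of Birc5 in the first and 30.6% and 76.0% in the second. Cdkn1a-201 held 97.3% and 90.7% in the first, and about 0% and 33.7% in the second, with Cdkn1a-205 at 96.7% and 64.0%. Across the 35 genes, the same transcript led in all 4 estimates in 25.

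Short fragments also bear on gaps in TPM between the libraries. Cdk2-207, a processed transcript of 549 bases, took 10.3 counts in replicate 1 and 0 in replicate 2, which came to 24.9% of Cdk2's TPM in replicate 1. Coding transcripts alone put Cdk2 at 2.27 and 2.04 TPM, where the whole gene had 4.02 and 2.38. Transcript Top2a-202, which has 632 bases, took 11.2 and 0.56 counts, which came to 21.7% and 1.62% of Top2a's TPM. Coding Top2a was at 2.45 and 2.09 TPM, where the whole gene had 4.25 and 2.83. For both genes the gap was smaller on the coding transcripts alone.

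**Figure D3:**
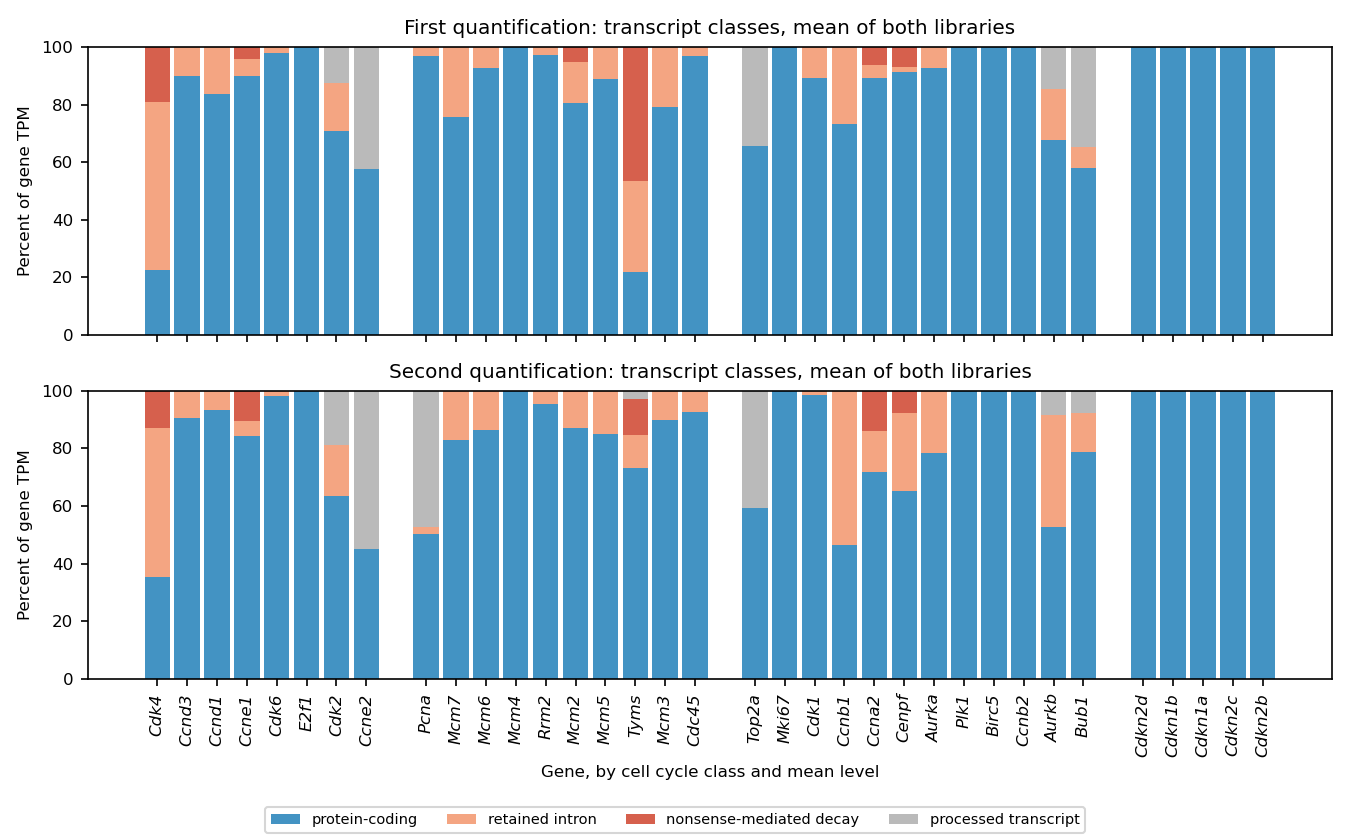
Percent of each gene's TPM by annotated transcript class, as the mean of both libraries, in the first quantification (upper panel) and the second (lower panel). Cdk4 is mostly retained intron in both panels, the decay class of Tyms is smaller (12.5% against 46.4%) and Pcna gains a processed transcript in the lower panel, and the 5 inhibitors are fully coding in both.

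At the level of whole genes the quantifications differed in scale and, for some genes, in the counts assigned. The median of all protein-coding genes was 3.60 TPM in the first and 5.83 TPM in the second, and that of the 35 genes 3.18 and 4.80 TPM. At least 2-fold higher in the second in both libraries were 3 of 30 detected genes, Pcna, Tyms and Cdkn2d, against 8.46% of detected protein-coding genes. Pcna had 49.1 and 44.6 TPM there, Tyms 8.77 and 6.91 TPM and Cdkn2d 56.5 and 47.2 TPM. Tyms had 119 and 98 counts in the first quantification and 426 and 332 in the second. Birc5 had 32 and 20 counts in the first and 70 and 61 in the second. The log2 ratio between libraries had the same sign in both quantifications for 34 of 35 genes, Ccnb2 being the exception.

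**Figure D4:**
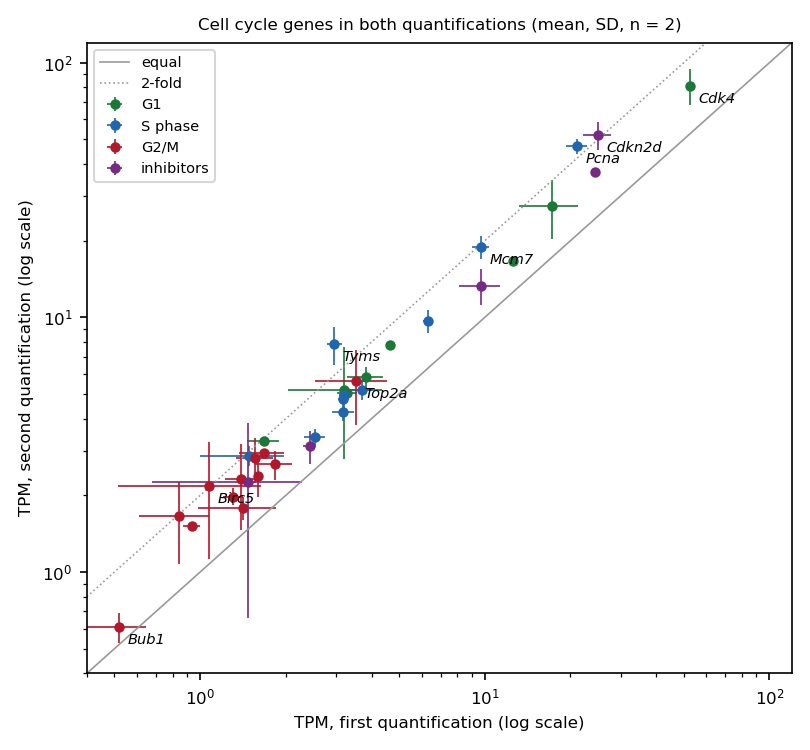
Mean TPM of each of the 35 genes in the first quantification against the second (log axes, bars SD, n = 2), with lines of equality and of 2-fold. Pcna, Tyms, Cdkn2d and, just above it, Birc5 lie over the 2-fold line, and the other genes lie between the lines.

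Sequence shared with other genes limits some of these levels. Of the 31-base words of Mcm7, 33.4% occur in another gene, most in the processed pseudogene Gm5487, which had 11.7 and 8.74 counts. For Ccnb1 the share was 27.8%, mostly with Ccnb1-ps (0 and 2.03 counts), and for Pcna 23.3%, all with Pcna-ps2 (50.7 and 34.3 counts). Bub1, Ccnb2, Cdkn2b, Cdkn2c, Cdkn2d and Mcm3 shared no word. Reads from shared words can be assigned to either gene, and how far that moved the levels was not measured.

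Exons also overlap on opposite strands. Such overlaps cover 23.4% of the exonic bases of Ccnd1 (with LTO1, 501 and 455 counts), 19.7% of Cdk4 (Tspan31, 880 and 775 counts), 17.4% of Ccne2 (Ints8, 880 and 624 counts) and 12.5% of Ccna2 (Exosc9, 600 and 569 counts). The labels name stranded libraries for the spike-in profile, but whether the counting used strand is not stated in those sources. The levels of these 4 genes, above all of the low Ccne2 and Ccna2, are therefore uncertain. Ccne2 had 70 and 66 counts, fewer than the gene it overlaps.

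The rest of the pathway was read from 5 lists that hold none of the 35 genes. Their detected counts stand against 58.8% of all protein-coding genes. Of 17 other cyclins, kinases and inhibitors, 13 were detected, with a median of 5.71 ± 0.382 TPM. The highest were Cdk5r1 at 103 ± 3.30 TPM and Ccnd2, and the lowest was Ccnb3, the meiotic cyclin, at 0.015 TPM. Cdk5r1 encodes p35, the neuronal activator of Cdk5, a kinase that acts in neurons outside the cycle. Over whole genes Cdk5 had 55.0 ± 3.85 TPM, close to Cdk4 at 52.7 ± 1.14. Coding transcripts alone gave Cdk4 11.8 ± 1.23 TPM, and the transcript classes of Cdk5 were not examined.

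Of 16 genes of the Rb and E2F family 11 were detected, with a median of 6.40 ± 0.0778 TPM. Tfdp1, the partner of E2F proteins, led at 29.0 ± 1.22 TPM, followed by Rb1, and E2f2 was the lowest at 0.545 ± 0.0778 TPM. The retinoblastoma gene Rb1 had 19.5 and 18.8 TPM and its relative Rbl2 (p130) 15.0 and 13.9 TPM. Rbl1 (p107), known from cycling cells, had 0.84 and 0.92 TPM. The activators of G2/M genes were also low: Foxm1 had 1.78 and 1.74 TPM and Mybl2 1.10 and 0.69 TPM. No gene of this list was 1.5-fold apart.

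Origin licensing and the replication fork had 22 of 31 genes detected and a median of 2.92 ± 0.233 TPM, near that of the S phase class. Orc4 (26.1 ± 1.94 TPM) and Rpa1 (25.7 ± 4.67 TPM) were the highest, and Orc1, the regulated subunit of the same origin complex, was the lowest at 0.19 ± 0.0566 TPM. Of 28 genes with enough counts, 2 were at least 1.5-fold lower in replicate 2, Cdc7 (342 and 187 counts) and Mcm10 (39 and 22 counts). Another 2 were higher, Rfc3 (70 and 113 counts) and Cdt1 (54 and 79 counts). The shares over all genes tested were 3.85% lower and 1.99% higher. For genes with 50 to 1000 counts they were 7.43% and 3.81%. The list as a whole had a median log2 ratio of -0.05.

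The list of the spindle checkpoint, kinetochore and cytokinesis had 15 of 26 genes detected (57.7%), near the 58.8% of all protein-coding genes. Its median was 1.355 ± 0.152 TPM, near that of the G2/M class. Its highest genes were Fzr1 (28.1 ± 2.34 TPM), the activator of the anaphase-promoting complex in G1 and resting cells, and Bub3 (23.2 ± 1.63 TPM). Its lowest was Ccnb1ip1 at 0.175 ± 0.0778 TPM. Cdc20, the activator of the same complex in mitosis, had 1.47 and 0.91 TPM, so Fzr1 was 24.7 times as high. Of 24 genes with enough counts 18 were lower in replicate 2, against the 48.2% and 55.0% given above, and the median log2 ratio was -0.27. At least 1.5-fold lower were 3, Kif23 (59 and 34 counts), Ttk (43 and 26 counts) and Cdc20 (57 and 35 counts), where those shares were 3.85% and 7.43%.

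All 8 p53 targets and regulators were detected, with a median of 20.98 ± 0.297 TPM, above the median of detected protein-coding genes. Bax (40.0 ± 0.926 TPM) and Zmat3 (35.3 ± 1.37 TPM) were the highest and Gadd45a (3.595 ± 0.757 TPM) the lowest. Cdkn1a, the p53 target among the 35 genes, lay inside that range at 9.70 ± 1.58 TPM. No gene of the list was 1.5-fold apart.

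**Figure D5:**
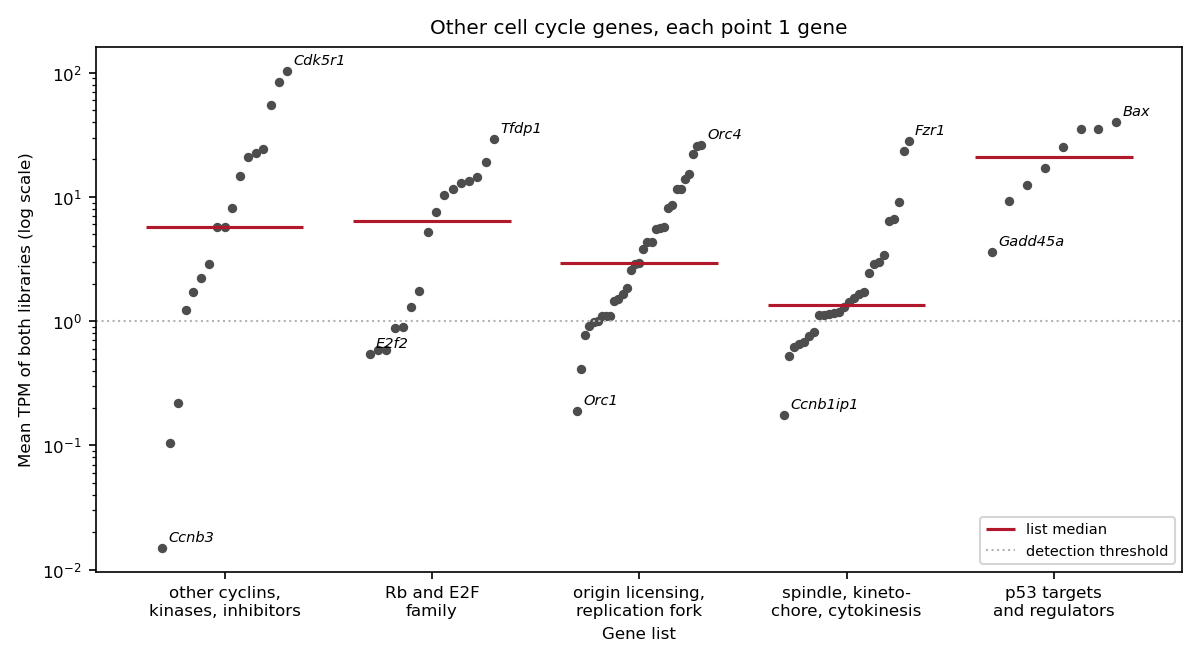
Mean TPM of both libraries (log scale) for each gene of the 5 other lists, ranked within its list, with the list median as a red line and the detection threshold of 1 dotted; the highest and the lowest gene are named. The medians run from 1.355 for the spindle list to 20.98 for the p53 list.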

How the data were processed

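Genes and lists were chosen with earlier results of these data known. The authors quantified both libraries on mm10 with GENCODE M21, per the file headers and the labels; the aligner, tool versions and strand setting: not given in the sources used here. The first quantification holds deposited expected counts, TPM and each transcript's percent of gene TPM, in the layout of RSEM. The second holds deposited estimated counts and TPM per transcript, in the layout of kallisto, and was summed by gene. Counts on annotated genes were 33301012 and 32721957; spike-ins (143817 and 139031) were left out of scaling. Computed here were means and SDs (n = 2), log2 ratios with TMM scaling (edgeR 4.0.16, R 4.3.3; size ratio 0.926), exact binomial intervals (scipy 1.17.1), shared words, exon overlaps and motif matches (Python 3.11.15). The ratio step was tested on simulated data. Reads are not independent molecules, so intervals and the floor of 3 counts cover counting error only. All 35 genes were named, with the 2 highest and the lowest gene of each list, genes 1.5-fold apart, and 8 genes fixed by name (Ccnd2, Cdkn1c, Cdkn2a, Rb1, Rbl1, Rbl2, Foxm1, Mybl2); Cdk5 was named after its value was seen. Some genes that the rule names in the marker lists are not reported here. Alternatives covered the quantification, the scaling, the prior, the detection threshold and leaving out a library.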

Additional observations from a re-analysis of the deposited data

How the results depend on the processing

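Of 72 alternative values 51 stayed within the spread or within 1.5 times the count, and 21 moved. Some of the 51 could not have moved. All 35 genes had the 50 summed counts required, so dropping that requirement changed nothing. The S phase over G2/M ratio is unchanged by rescaling TPM within a library. Leaving out a library keeps that ratio within its SD, which comes from the same 2 libraries. The tally is therefore no measure of stability. The second quantification gave median levels of 6.80 (G1), 5.07 (S phase), 2.25 (G2/M) and 13.3 TPM (inhibitors), and rescaling to nuclear protein-coding genes gave 9.67, 7.27, 3.20 and 22.0 TPM. Protein-coding transcripts only, an alternative chosen after seeing the data, gave 3.97, 2.98 and 1.30 TPM for G1, S phase and G2/M. The order of the classes held in each of these. Leaving out a library gave 4.35 to 4.425 TPM for G1 and 1.39 to 1.465 TPM for G2/M. Scaling by total counts gave median log2 ratios of -0.065 (G1), -0.17 (S phase) and -0.065 (inhibitors), so the direction of the small G1 and inhibitor medians depended on it. The number of genes at least 1.5-fold lower in replicate 2 was 1, but 2 with total-count or spike-in scaling (Aurkb and Birc5), 0 with a prior of 5, and 4 from deposited TPM (Cdk2, Cdc45, Cenpf and Birc5), also chosen after seeing the data. Cdkn2b was the 1 gene called higher under each of the alternatives run. No paired analysis was possible because there was 1 group. Depth limits the lowest genes: Bub1, Aurkb, Birc5 and Ccnb2 had at most 35 counts in each library in the first quantification. The count of Birc5 also depended on the quantification. It had 70 and 61 counts in the second, and its log2 ratio was -0.55 in the first and -0.08 in the second.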
